A study of Mus musculus with 14 samples.

Results

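Forkhead (Fox) genes encode transcription factors that share a winged-helix DNA-binding domain, whose recognition helix lies in the major groove of DNA. Several of them have known roles in skin. Foxi3 marks hair and tooth placodes and is induced by ectodysplasin and activin signalling, and a mutation of the gene in dogs leaves the coat sparse and teeth missing. Foxe1 acts in the hair follicle downstream of Hedgehog signalling, Foxc1 and Foxp1 keep adult hair follicle stem cells quiescent, and Foxq1 shapes the medulla of the hair shaft. Foxo1 and Foxo3 are held out of the nucleus when the kinase Akt phosphorylates them.

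Levels of 10 such genes were followed: Foxi3, Foxi2, Foxe1, Foxc1, Foxp1, Foxp2, Foxp4, Foxq1, Foxo1 and Foxo3. They were a named list of forkhead genes of skin epithelium, and all 10 were found among the 26252 genes of the count table. Total RNA of sorted epithelial cells had been sequenced from the back skin of E14.5 mouse embryos, wild type and of the strain C57BL/6JOlaHsd. Cells that carried the adhesion molecule MAdCAM-1 on their surface formed the placode-enriched fraction, with 7 libraries, and cells without it the IFE fraction, named for interfollicular epithelium, with 7 libraries. Each pair of libraries came from the pooled epithelium of 3 to 4 littermates, so a value is the mean of a pool and of all cells that the gate let through. The MAdCAM-1 gate enriches for placode cells and does not purify them.

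The libraries, here also called pools, held 23.8 to 49.5 mega counts. Madcam1, the gene behind the gate, had 47.9 ± 12.1 CPM in placode-enriched pools and 0.561 ± 0.367 CPM in IFE pools (SD, n = 7 each), where CPM is a gene's count divided by the scaled library total in mega counts. Of the markers of other cells, the 8 suprabasal ones that were measured together had 267 ± 85.7 CPM in placode-enriched pools and 3522 ± 616 CPM in IFE pools, and all 8 passed the test as lower. Melanoblast markers summed to 11.7 ± 2.56 CPM in placode-enriched pools and 172 ± 36.3 CPM in IFE pools, and 8 of the 9 passed as lower. Fibroblast markers summed to 532 ± 81.2 CPM in placode-enriched pools and 281 ± 27.8 CPM in IFE pools, most of it Dcn. Of the 6 tested, Dcn and Col1a2 passed as higher, Col1a1 passed as lower and 3 did not pass. Col1a1 had 0.524 ± 0.283 CPM in placode-enriched pools and 4.20 ± 4.30 CPM in IFE pools. Pdgfra, Pdgfrb and Twist2 stayed below 1 CPM on average in both. All 6 immune markers, 6 of 7 endothelial markers and the 2 muscle markers in the table were also below 1 CPM on average in both fractions. The other endothelial marker, Pecam1, passed as higher, with 1.83 ± 0.59 CPM in placode-enriched pools and 0.493 ± 0.383 CPM in IFE pools. The epithelial markers Krt5, Krt14, Krt15, Epcam, Cdh1 and Trp63 together had 5731 ± 501 CPM in placode-enriched pools and 6642 ± 509 CPM in IFE pools. Singly they went both ways: Krt14, Epcam and Trp63 passed as higher, and Krt5, Krt15 and Cdh1 as lower. The part of these cell mixtures in the results below was not tested, and in such bulk samples fewer cells of a type and less RNA per cell cannot be told apart.

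The genes differ in the bases that code for the recognition helix, which are shown for 7 of the 10. The 27 bases below were read 5′ to 3′ from the GENCODE M21 mouse transcripts, and capitals mark bases that differ from Foxi3.
Foxi3: aactccatccgccacaacctatcactc
Foxi2: aactccatccgccacaacctGtcGctc
Foxe1: aacAGcatccgccacaacctCAcCctc
Foxc1: aacAGcatAcgGcacaacctCtcGctc
Foxq1: aactccGtGcgccacaacctCtcGctc
Foxp4: aaTGccGtGcgccacaacctCAGCctG
Foxo3: aactccatccgGcacaacctGtcCctG
Foxi2 differed from Foxi3 at 2 of the 27 bases, Foxq1 and Foxo3 at 4 each, Foxe1 at 5 and Foxc1 at 6. Foxp4 stood farthest off of those shown, with 9 differences. The stretches of Foxi2, Foxc1 and Foxo3 code for the same amino acids as that of Foxi3. The base counts therefore do not rank how closely the genes are related. Exact matches of 28 bases or more between transcripts were looked for, since they could let reads be counted for the wrong gene. The search kept only alignments free of mismatches along their length, so exact stretches inside longer, imperfect alignments could be missed. For Foxi3, Foxp4 and Foxc1 it returned no match with another gene on either strand, which does not show that none exists. For Foxp1 and Foxp2 it returned a stretch shared with another forkhead gene, of 29 and 58 bases.

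Low counts decided how each gene could be examined. A filter on low counts kept 15382 genes, among them 7 of the 10: Foxi3, Foxp4, Foxp1, Foxo3, Foxo1, Foxc1 and Foxq1. In edgeR's quasi-likelihood test, which had the pairs as a block, Foxi3, Foxp4 and Foxp1 were higher in placode-enriched cells at an adjusted p under 0.05, 0 of the 7 were lower, and 4 did not pass. Over all genes tested 31.1% passed in either direction, 15.5% as higher and 15.6% as lower. The median log2 fold change of the 7 was -0.02, as it was over all genes tested. Foxi2, Foxe1 and Foxp2 did not reach the filter and are described by their counts. CPM ranges of the fractions did not overlap for Foxi3 and Foxp1, and over all genes tested 14.8% had no overlap, 7.46% with the placode-enriched and 7.29% with the IFE libraries on top.

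**Figure D1:**
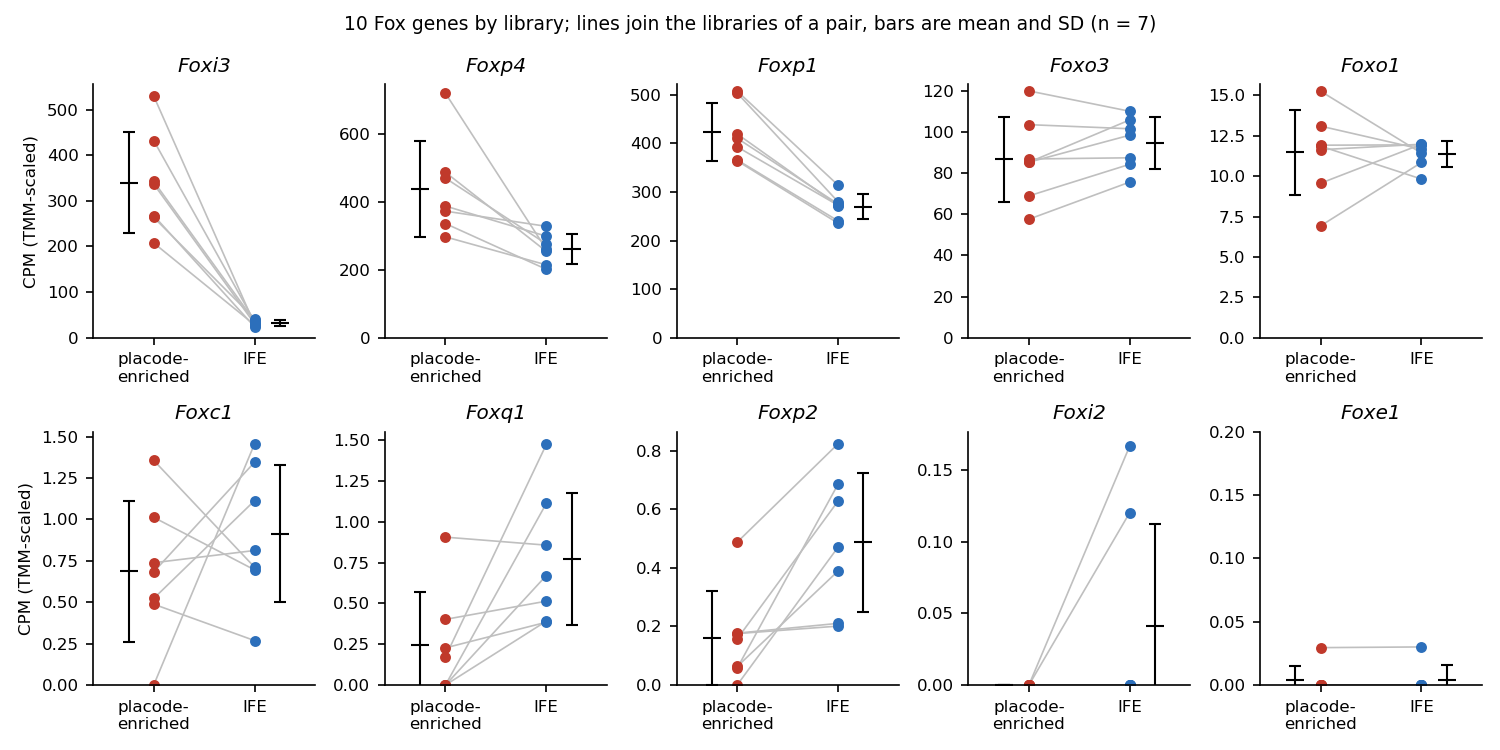
Level of the 10 forkhead genes in CPM (y axis, a separate scale for each gene) in 7 placode-enriched (red, left) and 7 IFE (blue, right) libraries; grey lines join the libraries of a pair and black bars give mean and SD. Foxi3 and Foxp1 separate fully, Foxp4 is higher in the placode-enriched library of every pair although its ranges overlap, and Foxi2 and Foxe1 lie at or near 0.

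Foxi3 (ENSMUSG00000055874, chr6:70956531-70961066, plus strand, GRCm38) was the forkhead gene with the greatest difference among the 7 tested. It had 207.6 to 529.5 CPM with a median of 337 in the placode-enriched libraries, against 23.8 to 41.9 CPM with a median of 30.8 in the IFE libraries. The lowest placode-enriched library thus lay well above the highest IFE library. The log2 fold change was 3.35 ± 0.16 (SE), a ratio of 10.2, with an edgeR adjusted p of 3.2e-09, and placed it at rank 116 by log2 fold change among the 15382 genes. The size of the difference varied between pairs, with 2.65 in pair 3 as the smallest and 4.17 in pair 5 as the greatest on the log2 scale. In pair 3 the IFE library was the highest of its fraction, at 41.9 CPM, and in pair 5 the placode-enriched library was, at 529.5 CPM. The SD was 110 CPM around a mean of 340 CPM in the placode-enriched libraries, against 6.03 CPM around 32.3 CPM in the IFE libraries. Foxi3 was thus measured in IFE libraries as well, with 662 to 1283 counts in each.

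The bases before Foxi3 and before its close relative Foxi2, which was almost unmeasured here, are shown because these genes differ at only 2 bases of the helix, yet stood first and last of the 10 in level per exon length in placode-enriched libraries. They are taken from the RefSeq windows of GRCm38.p6, which run from 250 bases before to 50 after a gene's start, and only the bases ahead of the gene's start in GENCODE are given. The Foxi3 stretch is chr6:70956356-70956530 and the Foxi2 stretch chr7:135410117-135410307, both on the plus strand, 5′ to 3′, and capitals mark the letters TATAAG.
Foxi3: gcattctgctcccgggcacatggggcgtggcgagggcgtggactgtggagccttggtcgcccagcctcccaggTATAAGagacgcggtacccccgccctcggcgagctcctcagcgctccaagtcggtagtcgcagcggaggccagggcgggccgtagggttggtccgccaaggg
Foxi2: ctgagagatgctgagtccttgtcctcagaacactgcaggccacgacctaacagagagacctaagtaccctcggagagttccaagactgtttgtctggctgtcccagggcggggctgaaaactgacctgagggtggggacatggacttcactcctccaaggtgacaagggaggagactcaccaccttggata
The full 300-base window of Foxi3 was 69.0% G and C with an observed over expected CpG ratio of 0.871, higher than in 84.9% of the 32851 windows. That of Foxi2 was 58.0% G and C with a ratio of 0.198, higher than in 28.4% of the windows. TATAAG, searched on both strands after these letters had been seen in Foxi3, stood at position 74 of its window and occurred in 7.43% of all windows. Of the 10 genes 7 had a window. The letters GTAAACA, a forkhead site, were in 3.65% of all windows and in none of these 7 genes, CCACCCA, a Gli core, in 9.30% and none, CTTTGAT, a Lef/Tcf site, in 3.73% and none, and the NF-kB consensus in 1.20% and none. CTTTGAA, a second form of the Lef/Tcf site, occurred in 5.14% of all windows and in 1 of 3 windows of Foxp1. TATAAA was in 13.6% of all windows and in none of these genes. Other forms of these sites were not searched, so the absence holds for the letters given only. A match of letters is a description of the window and does not show a bound site.

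Foxi2 (ENSMUSG00000048377, chr7:135410308-135413622, plus strand) had 0 counts in all 7 placode-enriched libraries, which allows up to 0.0131 CPM over the fraction if 3 counts are taken as the limit. In the IFE libraries it had 6 counts in replicate 6, 4 in replicate 7 and 0 in the other 5. Only those 2 pairs differed, too few for a sign-flip test over pairs to pass, so none is given. The counts summed over each fraction had 95% Poisson intervals that did not overlap, at 0 to 0.0161 CPM in placode-enriched and 0.0203 to 0.0780 CPM in IFE libraries, but these treat a fraction as 1 pool and leave out the spread between libraries. Foxe1 (ENSMUSG00000070990, chr4:46343609-46346412, plus strand) had 1 count in the placode-enriched library of pair 7, 1 count in the IFE library of pair 7 and 0 in the other 12 libraries, which is too little to compare the fractions. At this depth 3 counts in a single library correspond to 0.0606 to 0.126 CPM. These limits, like the count intervals below, cover counting error only. Foxe1 lies 30.1 kb from Trmo and 147 kb from Xpa, which had 5.72 ± 1.30 and 12.7 ± 1.72 CPM in placode-enriched libraries and 6.06 ± 1.20 and 12.8 ± 2.62 CPM in IFE libraries.

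The FoxP factors are repressors that bind DNA as dimers through a leucine zipper, and Foxp1, Foxp2 and Foxp4 can pair with one another. Foxp4 and Foxp1 were both higher in placode-enriched cells, and Foxp2 was scarce in both fractions. Foxp4 (ENSMUSG00000023991, chr17:47867133-47924645, minus strand) had 297 to 720 CPM with a median of 388 in the placode-enriched libraries and 202 to 328 CPM with a median of 261 in the IFE libraries. The ranges overlapped, since 1 placode-enriched library lay below the highest IFE library, yet the gene was higher in all 7 pairs. Its log2 fold change was 0.70 ± 0.13 (SE), a ratio of 1.63, with an edgeR adjusted p of 0.000754. Between pairs the difference ran from 0.19 in pair 3 to 1.47 in pair 5 on the log2 scale, the same pairs that were lowest and highest for Foxi3.

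Foxp1 (ENSMUSG00000030067, chr6:98925338-99522721, minus strand) was steadier. It had 364 to 508 CPM with a median of 411 in the placode-enriched libraries and 236 to 314 CPM with a median of 273 in the IFE libraries, and the ranges did not overlap. The log2 fold change was 0.64 ± 0.06 (SE), a ratio of 1.56, with an edgeR adjusted p of 4.3e-06, and the 7 pairs lay between 0.53 and 0.85. A predicted transcript on the same strand, Gm20696, shares 302 bases with Foxp1, so some reads may have been counted for the other. It had 1.69 ± 0.62 CPM in placode-enriched pools and 1.41 ± 1.34 CPM in IFE pools, a small amount beside Foxp1.

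Foxp2 (ENSMUSG00000029563, chr6:14901349-15441977, plus strand) is known for its part in the neural circuits of vocal learning. It had 38 counts over the 7 placode-enriched libraries (95% Poisson interval 26.9 to 52.2) and 117 counts over the 7 IFE libraries (96.8 to 140.2), or 0.160 ± 0.160 and 0.487 ± 0.238 CPM. The IFE library was higher in all 7 pairs, while the ranges of the fractions overlapped. The exact two-sided sign-flip test, added after these values had been seen, gave p = 0.0156, which is the smallest p that 7 pairs allow. In the edgeR fit without a filter the log2 fold change was -1.81 ± 0.83 (SE) with an adjusted p of 0.152. The gene entered the filter when pair 3 was left out, with -2.02 ± 0.73 and an edgeR adjusted p of 0.0453, and when pair 7 was left out, with -2.01 ± 0.76 and 0.0682. The call thus turned on which pair was absent.

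Foxo1 and Foxo3 are the effectors through which insulin and growth factor signals reach genes of cell-cycle arrest, stress resistance and apoptosis. Neither passed the test. Foxo3 (ENSMUSG00000048756, chr10:42181841-42276755, minus strand) had 57.6 to 120.0 CPM with a median of 85.4 in the placode-enriched libraries and 75.7 to 110.1 CPM with a median of 98.5 in the IFE libraries. The ranges overlapped nearly throughout, with 2 pairs higher and 5 lower. The log2 fold change was -0.15 ± 0.08 (SE), with an edgeR adjusted p of 0.175. Foxo1 (ENSMUSG00000044167, chr3:52268336-52353221, plus strand) had 6.93 to 15.3 CPM with a median of 11.9 in the placode-enriched libraries and 9.82 to 11.98 CPM with a median of 11.7 in the IFE libraries. Its placode-enriched values spread more widely around nearly the same centre, and its log2 fold change was -0.02 ± 0.14 (SE) with an edgeR adjusted p of 0.946. Its sign turned with the scaling, as the values of library size only (0.02) and upper-quartile scaling (0.001) show.

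Foxc1 and Foxq1 lie 246 kb apart on chromosome 13 in a forkhead cluster, with Foxf2 between them. Both were near the lower limit of what the libraries measured. Foxc1 (ENSMUSG00000050295, chr13:31806633-31812476, plus strand) had 163 counts over the placode-enriched libraries (95% Poisson interval 138.9 to 190.0) and 214 over the IFE libraries (186.3 to 244.7). Per library it ran from 0 to 1.36 CPM with a median of 0.683 in the placode-enriched fraction and from 0.268 to 1.46 CPM with a median of 0.812 in IFE. The ranges overlapped, and the log2 fold change of -0.45 ± 0.67 (SE) did not pass, with an edgeR adjusted p of 0.675. A single library set its sign: the placode-enriched library of pair 2 had 0 counts, and without that pair the log2 fold change was 0.03.

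Foxq1 (ENSMUSG00000038415, chr13:31556134-31560976, plus strand) showed the widest ratio toward IFE among the 7 tested genes, without passing. The 7 placode-enriched libraries had 10, 23, 0, 6, 7, 0 and 0 counts in the order of the pairs, and the IFE libraries 12, 30, 20, 58, 14, 40 and 13. The totals were 46 (95% Poisson interval 33.7 to 61.4) and 187 (161.2 to 215.8). The ranges in CPM, 0 to 0.906 in placode-enriched and 0.384 to 1.47 in IFE libraries, overlapped, since the placode-enriched libraries of pairs 1 and 2 lay above the lowest IFE library, and pair 2 was the only pair in which that fraction was not lower. The log2 fold change was -2.44 ± 0.94 (SE) with an edgeR adjusted p of 0.0601. It passed in edgeR without pair 2 (-3.03, adjusted p 0.0378) and without pair 5 (-2.82, adjusted p 0.0461), and also with DESeq2 (-2.90, adjusted p 0.00229), with limma-voom (-2.39, adjusted p 0.0393) and after a GC correction (-2.46, edgeR adjusted p 0.0392). Without the pair block it was -1.73 with an edgeR adjusted p of 0.105. The coding gene A530084C06Rik overlaps Foxq1 over 3200 bases on the opposite strand and had 0 CPM in placode-enriched pools and 0.0145 CPM on average in IFE pools, but without the strand setting the reads of both cannot be told apart.

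Levels between genes were compared per kilobase of annotated exon, on which scale the forkhead genes were ordered differently in the 2 fractions. The 39 forkhead genes in the table, the 10 and 29 others, summed to 523 ± 140 CPM per kb in placode-enriched pools and 241 ± 28.6 CPM per kb in IFE pools (SD, n = 7 each). Foxi3 made up 50.1 ± 3.43% of this sum in placode-enriched cells, between 45.4% and 54.6% in single libraries, and 10.4 ± 0.90% in IFE cells, between 9.25% and 11.6%. On this scale it was thus the first forkhead gene in every placode-enriched library, far from the next, Foxp4, at 15.5% to 18.9%. In the IFE libraries Foxp4 came first at 20.4% to 23.7%, followed by Foxm1, a driver of mitotic genes, at 13.8% to 15.3%. There Foxi3 was not apart from Foxk2, at 8.43% to 10.3%, and the ranges of Foxk2, Foxp1 (7.01% to 9.07%) and Foxk1 (6.93% to 8.77%) overlapped too. In placode-enriched libraries the ranges of Foxm1 (5.80% to 8.10%) and Foxp1 (4.73% to 7.45%) overlapped in the same way. Foxo3 was next among the 10 genes, with 2.23 ± 0.34% in placode-enriched and 5.21 ± 0.45% in IFE libraries, and each of the other genes of the 10 held less than 1%. This order depends on the exon length, merged over all annotated transcripts: 1281 bases for Foxi3, 4926 for Foxp4 and 13751 for Foxp1. In CPM without that division, Foxi3 averaged 340 in placode-enriched libraries, below Foxp4 at 439 and Foxp1 at 424. The annotation release behind the counts is not given.

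Ratios within a library are free of library scaling. Foxi3 over Foxp4, per kb, was 2.98 ± 0.36 in placode-enriched libraries (2.66 to 3.53) and 0.474 ± 0.026 in IFE libraries (0.434 to 0.507), and it was higher in the placode-enriched library of all 7 pairs. The ranges were far apart, although the level of either gene varied more between pairs than the ratio. Foxp1 over Foxp4 was 0.362 ± 0.064 in placode-enriched pools and 0.375 ± 0.045 in IFE pools, with 3 pairs higher and overlapping ranges. Foxo3 over Foxo1 was 8.77 ± 1.36 in placode-enriched pools and 9.59 ± 1.61 in IFE pools, with 4 pairs higher.

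Pairs 3 and 5 stood at the ends for Foxi3, Foxp4 and Foxp1, and they also stood apart in genes rich in G and C. The longest transcripts of Foxi3 and Foxp4 are 63.2% and 63.4% G and C, over the 57.9% above which the top 10% of the tested genes lie, while that of Foxp1 has 44.9% against a median of 49.7%. In that top 10% the median log2 difference of placode-enriched minus IFE was -0.41 in pair 3 and 0.47 in pair 5, and between -0.16 and 0.12 in the other 5 pairs. In the 10% lowest in G and C it ran the other way, with 0.45 in pair 3 and -0.41 in pair 5. After a correction of each library for GC content, chosen after these values had been seen, the log2 fold change of Foxi3 was 3.31 ± 0.08 (SE) and that of Foxp4 0.66 ± 0.05, so the SE of both was smaller and the difference nearly as large. Foxp1, with its lower GC content, had 0.66 ± 0.07. Foxp4 had an edgeR adjusted p of 1.0e-07 in that fit, and Foxo3, at 53.2% G and C, had -0.16 ± 0.06 with an adjusted p of 0.052. Without pairs 3 and 5 the log2 fold changes were 3.34 for Foxi3, 0.66 for Foxp4 and 0.63 for Foxp1, all past the threshold in edgeR.

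**Figure D2:**
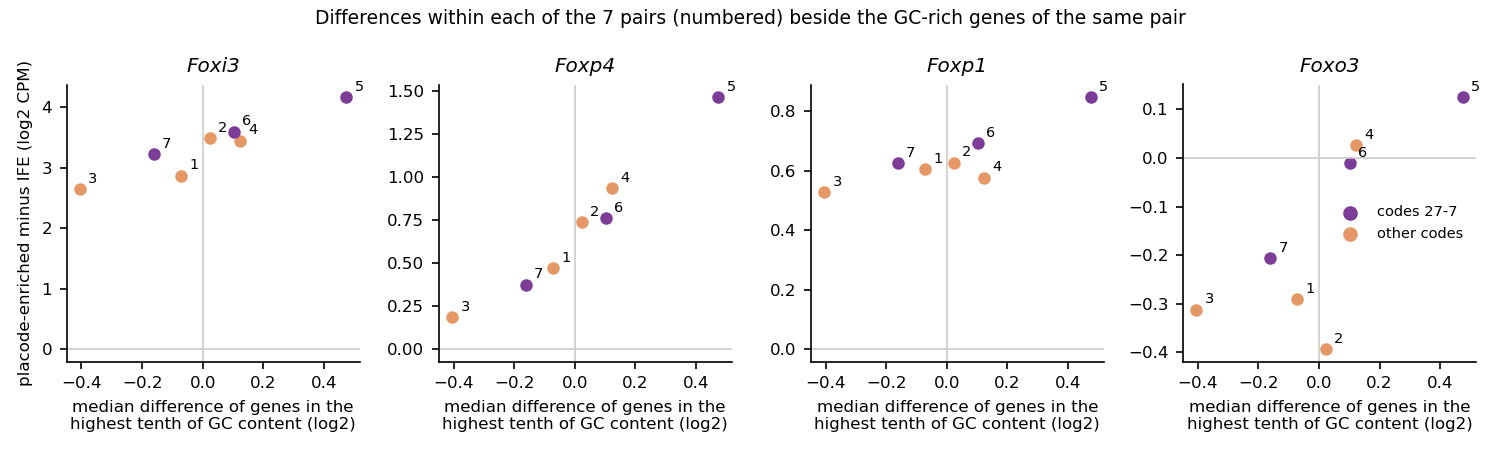
Difference of Foxi3, Foxp4, Foxp1 and Foxo3 between the placode-enriched and the IFE library of each pair (y axis, log2 CPM) against the median difference of the 10% of genes highest in GC content in the same pair (x axis, log2); numbers are pairs, purple marks the 3 pairs with codes starting 27-7 and orange the other 4. Pair 3 is leftmost and pair 5 rightmost in every panel, and Foxp4 is lowest in pair 3 (0.19) and highest in pair 5 (1.47).

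The title codes of 3 pairs, numbers 5 to 7, begin with 27-7, and the labels do not say what the code stands for. Foxi3 had 435 ± 93.6 CPM in placode-enriched pools and 33.8 ± 3.86 CPM in IFE pools of these 3 pairs (SD, n = 3 each). In the other 4 pairs it had 269 ± 52.9 CPM in placode-enriched pools and 31.2 ± 7.67 CPM in IFE pools (SD, n = 4 each). The placode-enriched ranges of the 2 sets did not overlap, whereas the IFE ranges did. Within the 27-7 pairs alone the log2 fold change was 3.67 ± 0.19 (SE), and within the others 3.12 ± 0.16, each past the threshold in edgeR. The difference between them, as an interaction, was 0.55 ± 0.25 with an unadjusted edgeR p of 0.0499 and an adjusted p of 0.902, and after the GC correction it was 0.29 with an adjusted p of 0.984. Foxp4 was higher in placode-enriched cells by 0.87 within the 27-7 pairs and by 0.58 within the others, and Foxp1 by 0.73 and 0.58, each past the threshold. No forkhead gene of the 7 passed the interaction test in edgeR, where Foxi3 was the only one with an unadjusted p under 0.05. Over all genes tested 0 passed it in edgeR, 3.43% had an unadjusted p under 0.05, and DESeq2 called 1 gene, none of the 7, and limma-voom 0.

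Of the 34 other forkhead genes of the mouse that were listed, 29 were in the table and 12 passed the filter. Of these 12, 1 was higher in placode-enriched cells, 4 were lower and 7 did not pass, with a median log2 fold change of -0.04 against -0.02 over all genes tested. The share that passed over all genes was 31.1% in either direction. Foxo6, a FoxO factor that stays largely in the nucleus, was the 1 that rose. It had 14.4 to 25.7 CPM with a median of 17.8 in placode-enriched and 3.65 to 6.81 CPM with a median of 6.00 in IFE libraries. The ranges did not overlap, and the log2 fold change was 1.78 ± 0.13 (SE) with an edgeR adjusted p of 2.7e-07. Foxn1, the gene of the nude mouse and a factor of keratinocyte differentiation, was the lowest of the 12 on the log2 scale. It had 3.69 to 8.18 CPM with a median of 7.27 in placode-enriched and 18.5 to 40.3 CPM with a median of 24.2 in IFE libraries, again with no overlap, and a log2 fold change of -2.03 ± 0.20 (SE) with an edgeR adjusted p of 5.1e-06. The suprabasal markers, which moved in the same direction, are given above, and their part in this result was not tested. Foxb2 fell by 0.74 ± 0.22 (SE), Foxn2 by 0.38 ± 0.10 and Foxn3 by 0.32 ± 0.07 on the log2 scale, with edgeR adjusted p of 0.0192, 0.0120 and 0.00246. Foxb2 no longer passed without pair 4, with an edgeR adjusted p of 0.071. Foxm1, the most abundant of the 12, had 205 ± 33.5 CPM in placode-enriched pools and 200 ± 22.5 CPM in IFE pools and did not pass. Foxd3, a factor of the neural crest from which melanoblasts come, was picked out after its values were seen. It failed the filter with 0 to 0.0402 CPM in placode-enriched and 0.235 to 0.862 CPM in IFE libraries, where the melanoblast markers were also higher.

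Foxi3 and Foxe1 are placed by earlier work downstream of ectodysplasin, activin and Hedgehog signals, and 18 genes of these pathways, all tested, were read beside them. Of these, 10 were higher in placode-enriched cells, 1 was lower and 7 did not pass, with a median log2 fold change of 0.51. Among all genes tested, 15.5% passed as higher and 15.6% as lower. The list was drawn up with earlier results of these libraries known, and it holds genes that define placodes. The ectodysplasin receptor Edar had 199 ± 26.0 CPM in placode-enriched pools and 28.9 ± 5.20 CPM in IFE pools, a log2 fold change of 2.79 ± 0.07 (SE, edgeR adjusted p 4.1e-11), while its ligand Eda fell by 0.90 ± 0.09 with 16.6 ± 2.40 CPM in placode-enriched pools and 30.9 ± 2.36 CPM in IFE pools (edgeR adjusted p 4.0e-06). Their adaptor Edaradd and the NF-kB genes Nfkb2 and Nfkbia rose by 0.81, 1.29 and 1.24 on the log2 scale. The NF-kB genes Rela and Nfkb1 and the gene Traf6 did not pass, with log2 fold changes of -0.04, 0.12 and -0.29. Activin A is a dimer of the product of Inhba. That gene had 0.966 ± 0.350 CPM in placode-enriched pools and 0.446 ± 0.474 CPM in IFE pools, and neither it nor the receptors Acvr1b, Acvr2a and Acvr2b passed. Shh had 105 ± 23.4 CPM in placode-enriched pools and 2.02 ± 0.77 CPM in IFE pools, and the Hedgehog receptor and target Ptch1 had 308 ± 53.2 and 102 ± 18.3 CPM. The factor Gli1, itself a Hedgehog target, had 191 ± 42.6 CPM in placode-enriched pools and 62.7 ± 5.26 CPM in IFE pools, in contrast to Foxe1, which had the single counts given above. Gli2 had 304 ± 97.5 CPM in placode-enriched pools and 224 ± 38.7 CPM in IFE pools, and its log2 fold change of 0.39 ± 0.12 (edgeR adjusted p 0.0270) no longer passed without pair 2, 4, 5 or 6, or without the pair block, where the adjusted p was 0.0643.

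FoxO factors are known to raise genes of arrest, apoptosis and stress defence, and 21 such targets were listed. The table had 20 of them and 18 were tested: 6 were higher in placode-enriched cells, 3 were lower and 9 did not pass, with a median log2 fold change of 0.05. The share that passed over all genes was 31.1% in either direction. Bcl2l11, which encodes the pro-apoptotic protein Bim, had 20.7 to 29.5 CPM with a median of 23.0 in placode-enriched and 7.07 to 9.91 CPM with a median of 8.68 in IFE libraries, without overlap (log2 fold change 1.48 ± 0.11, edgeR adjusted p 1.9e-07). Ccng2, a cyclin linked to arrest, rose by 0.87 ± 0.13 and Irs2, an adaptor of the insulin receptor, by 0.49 ± 0.13, with edgeR adjusted p of 0.000167 and 0.00865. Sesn3 and Cdkn1b also rose, as did the ubiquitin ligase gene Fbxo32 by 0.51 ± 0.16 (edgeR adjusted p 0.0301), which no longer passed without pair 3, 5, 6 or 7. In the other direction Cdkn1a, the cell-cycle inhibitor p21, had 4.88 to 9.98 CPM with a median of 7.50 in placode-enriched and 29.4 to 52.0 CPM with a median of 34.2 in IFE libraries, and fell by 2.36 ± 0.11 (edgeR adjusted p 4.6e-09). Sod2, the mitochondrial superoxide dismutase, had 42.2 ± 4.05 CPM in placode-enriched pools and 66.2 ± 3.16 CPM in IFE pools and fell by 0.65 ± 0.07. Trim63, a ubiquitin ligase known from muscle, fell by 3.17 ± 0.85 at a level of 0.101 ± 0.142 CPM in placode-enriched pools and 0.629 ± 0.238 CPM in IFE pools (edgeR adjusted p 0.0105). At such counts its size was unsteady: -3.81 without pair 3, -5.35 in the 27-7 pairs alone and -2.29 in the other pairs alone, where it did not pass (edgeR adjusted p 0.151). Txnip, the most abundant of the 18, had 97.7 ± 13.2 CPM in placode-enriched pools and 95.7 ± 11.8 CPM in IFE pools and did not pass.

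The kinases and phosphatases that set the location of FoxO proteins were represented by 14 genes, all tested, of which 1 was higher, 4 were lower and 9 did not pass, with a median log2 fold change of -0.002. Among all genes tested, 31.1% passed in either direction. The gene that rose, Inpp4b, a phosphatase of a lipid that activates Akt, had 20.1 ± 3.43 CPM in placode-enriched pools and 6.65 ± 1.96 CPM in IFE pools, with no overlap of the ranges and a log2 fold change of 1.63 ± 0.17 (SE, edgeR adjusted p 7.7e-06). The kinase gene Akt1, with 187 ± 18.4 CPM in placode-enriched pools and 161 ± 16.4 CPM in IFE pools, did not pass. Pdpk1, the kinase that activates Akt, fell by 0.35 ± 0.07, Phlpp1, a phosphatase of Akt, by 0.39 ± 0.08 and the catalytic subunit gene Pik3cb by 0.45 ± 0.10. Pik3r1, a regulatory subunit gene and the most abundant of the 4 that fell, had 180.0 ± 17.8 CPM in placode-enriched pools and 213 ± 16.3 CPM in IFE pools. It fell by 0.25 ± 0.08 (edgeR adjusted p 0.0268), which no longer passed without pair 1, 2, 4, 6 or 7. Messenger levels say nothing of phosphorylation, which was not measured.

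**Figure D3:**
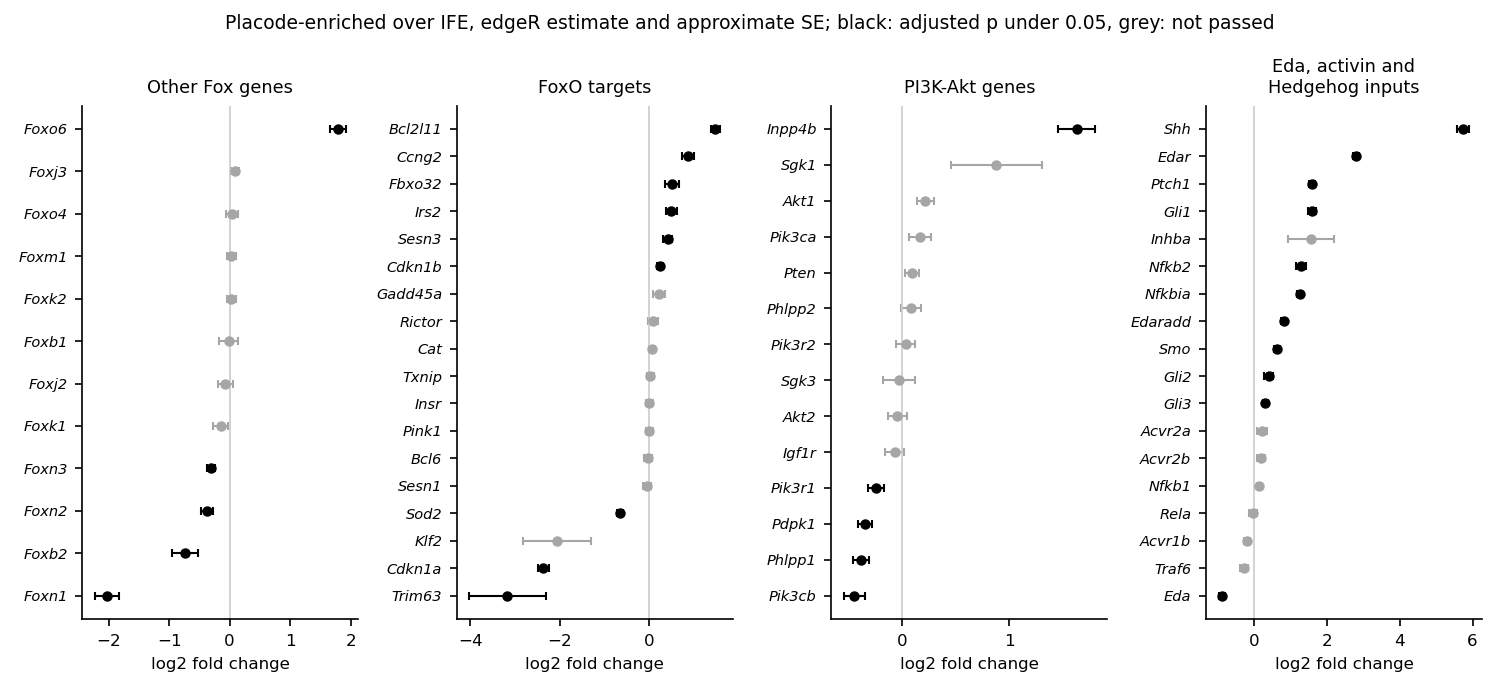
Log2 fold change of placode-enriched over IFE with its approximate SE (x axis, a separate scale for each panel) for the tested genes of 4 lists (y axis); black points passed at an edgeR adjusted p under 0.05 and grey points did not. Foxo6 and Foxn1 mark the ends of the other forkhead genes, Bcl2l11 and Trim63 those of the FoxO targets, and 10 of the 18 ectodysplasin, activin and Hedgehog genes are black on the right. Among all genes tested, 15.5% passed as higher.

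The genes whose pattern over the 14 libraries was most like that of each forkhead gene were sought by the root-mean-square difference of log2 CPM after each gene was centred on its own mean, among 12514 coding genes. For Foxi3 they were Etv4, a factor of FGF signalling (difference 0.249), Ncam1, a cell adhesion molecule (0.252), and Fn1, fibronectin (0.262), where the median over all genes was 1.74. Etv4 had 134 ± 23.3 CPM in placode-enriched pools and 16.2 ± 3.29 CPM in IFE pools, and its fold change was close to that of Foxi3 because the measure asks for that. For Foxp1 the nearest were Traf3 (0.069), Rgs12 (0.077) and Scube3 (0.085) at a median of 0.470, and for Foxp4 Nlgn2 (0.085), Midn (0.095) and Adcy6 (0.123) at a median of 0.576. Those of Foxo3 were Urgcp, Vps37c and Stxbp2, at 0.103 to 0.119, and those of Foxo1 Herpud2, Fam53a and Ncstn, at 0.141 to 0.155. For the sparse genes Foxc1 and Foxq1 the nearest genes, Rtl8c and Hemgn, were at 0.522 and 0.767 and as scarce as they were.

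The coding genes on either side of the 10 genes were 19, of which 16 were in the table and 11 were tested. Of these 2 were higher in placode-enriched cells, 0 were lower and 9 did not pass, where 31.1% of all genes tested passed in either direction. Eif4e3, which encodes a cap-binding protein of translation, lies 102 kb from Foxp1 and had 11.2 ± 3.64 CPM in placode-enriched pools and 1.39 ± 0.61 CPM in IFE pools. Its log2 fold change of 3.06 ± 0.19 (SE, edgeR adjusted p 5.8e-08) stands beside 0.64 for Foxp1. Mdfic, 279 kb from Foxp2, had 26.7 ± 5.85 CPM in placode-enriched pools and 21.2 ± 2.98 CPM in IFE pools and rose by 0.31 ± 0.09 (edgeR adjusted p 0.0203), which no longer passed without pair 1 or 2, or without the pair block at 0.0675. Beside Foxi3, Thnsl2 had 3.32 ± 0.77 CPM in placode-enriched pools and 2.65 ± 0.58 CPM in IFE pools, 167 kb away, and did not pass. Gmds, 7.10 kb from Foxc1, had 4.99 ± 1.08 CPM in placode-enriched pools and 5.98 ± 0.59 CPM in IFE pools and was lower in all 7 pairs without passing.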

How the data were processed

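Per the labels' protocols, epithelium was freed from mesenchyme with Dispase II and dissociated with TrypLE, and total RNA of sorted live cells went into Ovation SoLo libraries. The authors deposited raw counts per Ensembl gene. Tools named in the submitters' processing notes are Trimmomatic, HTSeq, bcl2fastq 2.17.1.14 and STAR, listed as 1.5, and the builds are GRCm38 and mm10. The sources used here give no annotation release, strand setting or treatment of duplicate reads. Names and positions came from GENCODE M21 (25949 of 26252 identifiers matched; the other 303 held 0.436% of counts). Sequences came from GENCODE M21 and RefSeq GRCm38.p6.

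Counts were analysed with edgeR 4.0.16 (R 4.3.3): filterByExpr kept 15382 genes and removed 10870, followed by TMM scaling and robust quasi-likelihood F tests over all 14 libraries, with Benjamini-Hochberg adjustment over all genes at 0.05. The common BCV (biological coefficient of variation) was 0.216. Standard errors are approximate. A prior count of 2 entered the log2 differences within pairs. DESeq2 1.42.0 and limma 3.58.1 were alternatives. Foxp2, which the filter removed, was compared by an exact sign-flip test of CPM over pairs. Pairs follow the labels, since the design text counts 7 pairs, each title code occurs on 2 libraries, and littermates were pooled. Libraries of a pair deviated from their fraction's mean with a correlation of 0.055 on average (-0.132 to 0.195, over 0.1 in 2 pairs). With pairs as a block, the p-values rest on how differences within a pair varied over the 7 pairs. The dispersion behind them also draws on other genes, so they do not measure a gene's own spread alone. Library totals of 23.8 to 49.5 mega counts limit the precision of scarce genes. The fits were tested on simulated data with the same dispersion for all genes and no effect of GC content. That setting leaves out the GC differences between pairs described above.

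The 10 genes and the lists were chosen with earlier results of these data known. Named besides the 10 genes are Madcam1, up to 4 passing genes of each list with the largest change in each direction, the most abundant tested gene of a list, the 3 coding genes nearest in pattern, and neighbours; further list genes are named where a count rests on them. GC content was that of a gene's longest transcript and was known for 99.2% of tested genes. Each library was corrected along a lowess curve, after the data had been seen. A few items, among them 1 list gene and some sequences, are not reported here.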

Additional observations from a re-analysis of the deposited data

Results flagged for a closer look

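Among 21 groups of 7 values that were looked at, the differences of Foxc1 between the libraries of a pair held 1 value far from the rest. Pair 2 had a log2 difference of -4.66, where the next lowest pair had -1.01, and the gap took up 0.659 of the range, above Dixon's 95% critical value for 7 values. The placode-enriched library of that pair had 0 counts of Foxc1 and its IFE library 51. Such a test marks about 1 in 20 groups by chance.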

How the results depend on the processing

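Foxi3, Foxp4 and Foxp1 passed as higher in every alternative, so the count of called genes was 3, or 4 where a gene passed as lower: Foxq1 with DESeq2, limma-voom, the GC correction and without pair 2 or 5, and Foxp2 without pair 3. Without the replicate block the count was also 3, and of the genes named only Gli2 and Mdfic lost their call. With single pairs left out the 10 genes had 3 to 4 calls, the other forkhead genes 4 to 6, the FoxO targets 7 to 9, the PI3K-Akt genes 4 to 6, the pathway genes 10 to 13 and the interaction 0. Among the 10 genes the interaction had 0 calls in every alternative run. The other forkhead genes had 5 calls, but 3 in the 27-7 pairs alone, 3 in the other pairs alone and 3 at a threshold of 0.01. The FoxO targets had 9, but 5 in the other pairs alone, and the PI3K-Akt genes 5, but 1 in the 27-7 pairs alone and 3 in the other pairs alone, where fewer libraries were tested. Signs turned only in genes that did not pass: Foxc1 (0.032 without pair 2; -0.715 to 0.032 with single pairs left out), Foxo1 (0.013 without the replicate block, 0.001 with upper-quartile scaling, 0.016 with library size only, 0.027 with limma-voom, 0.185 in the 27-7 pairs alone; -0.076 to 0.094 with single pairs left out, positive without pair 1 or 2) and Foxm1 (-0.031 in the other pairs alone; -0.030 to 0.074 with single pairs left out, negative without pair 5). The cause was not tested. Of 857 fold changes of 43 genes over the alternatives, 805 kept direction and call, 37 lost and 5 gained the call, and 10 changed sign. The GC correction called 5780 genes, 2823 higher and 2957 lower, against 4786 with 2384 and 2402. Depth limits Foxi2, Foxe1, Foxp2, Foxc1 and Foxq1.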
